A study of Homo sapiens with 6 samples.

Results

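The 10 genes described here encode 9 immune checkpoint ligands of tumour cells and CMTM6, a partner protein of one of them. They were chosen by name: CD274, PDCD1LG2, CD276, VTCN1 and ICOSLG of the B7 family, PVR and NECTIN2 of the nectin family, and CMTM6, CD47 and LGALS9. All 10 were found under these symbols among the 60662 genes of the deposited count table. RNA came from DU-145, an established human prostate cancer cell line that carried a MUC1 hairpin vector switched on by tetracyclines. MUC1 encodes a transmembrane mucin. The DOX-negative group is 3 cultures given vehicle and the DOX-positive group 3 cultures given doxycycline (DOX), in both cases over 7 days. Every culture carried the vector, and every culture received interferon-gamma at 10 ng/ml over 24 hours. Unstimulated cells, and a control hairpin with DOX, were not analysed here, so effects of DOX itself and of hairpin induction cannot be told apart. No source used here says whether the line was 1 clone or a pool, or gives the hairpin's sequence.

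Checkpoint ligands are surface or secreted proteins that engage receptors on lymphocytes or macrophages and adjust their activity. PD-L1 (CD274) and PD-L2 (PDCD1LG2) bind the inhibitory T-cell receptor PD-1, and PD-L1 is a well-known interferon-gamma target in epithelial tumours. PVR and NECTIN2 are shared between the activating receptor CD226 and the inhibitory receptor TIGIT, CD47 binds SIRPA on macrophages, and galectin-9 (LGALS9) is a sugar-binding ligand of TIM-3.

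Total counts ranged from 87739734 to 150921436 reads per library. Levels are given in CPM (counts per unit of library size, with sizes scaled by edgeR's TMM method). MUC1 stood at 20.4 to 22.2 CPM in DOX-negative and 1.31 to 1.53 CPM in DOX-positive cultures, in the direction of the labels. The 5 epithelial markers (EPCAM, KRT8, KRT18, KRT19 and CDH1) rose, and their summed level in RPKM (CPM per kilobase of the deposited gene length) went from 213.9 to 224.9 in one group to 620.2 to 639.8 in the other. The part of this shift in the ligand results was not tested. KLK3, a marker of prostate luminal cells, had 0 reads in all libraries. Of 11 leukocyte markers, 2 rose and 3 fell at low levels, CD3E, CD2 and MS4A1 had 0 reads and PTPRC at most 6. CD68, 1 of the 2 that rose, lost its call with libraries scaled by size alone, in DESeq2 and without DOX-negative replicate 2, among other settings. The summed level of the 11 leukocyte markers was 0.945 to 0.993 RPKM without DOX and 0.532 to 0.635 with it. Endothelial markers summed to 0.108 to 0.119 and then 0.0543 to 0.0653 RPKM, and fibroblast markers to 0.642 to 0.762 and then 0.494 to 0.521 RPKM. In bulk RNA, fewer cells with a transcript and less of it per cell cannot be told apart.

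PDCD1LG2, CD274, PVR, CD276 and CMTM6 rose in DOX-positive cells, and LGALS9 and CD47 fell. NECTIN2 and ICOSLG did not pass the threshold, an adjusted p under 0.05 in edgeR's quasi-likelihood test, and VTCN1 had too few reads to be tested. Thus 7 of the 9 tested genes changed, where 56.5% of the 24695 genes tested in the table changed. Higher calls numbered 5 (27.6% of all genes) and lower calls 2 (28.9% of all genes). The 9 genes had a median log2 fold change of 0.17, and all genes tested had one of -0.04. In 9 of the 9, no DOX-positive library fell within the range of the DOX-negative ones, which held for 62.4% of all genes. Scaling by library size alone moved the median of all genes by -0.14 on the log2 scale and gave 3 higher and 4 lower members, beside 19.0% and 38.8% of all genes. CD276 and CMTM6 then no longer passed, and NECTIN2 and ICOSLG passed as lower.

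**Figure D1:**
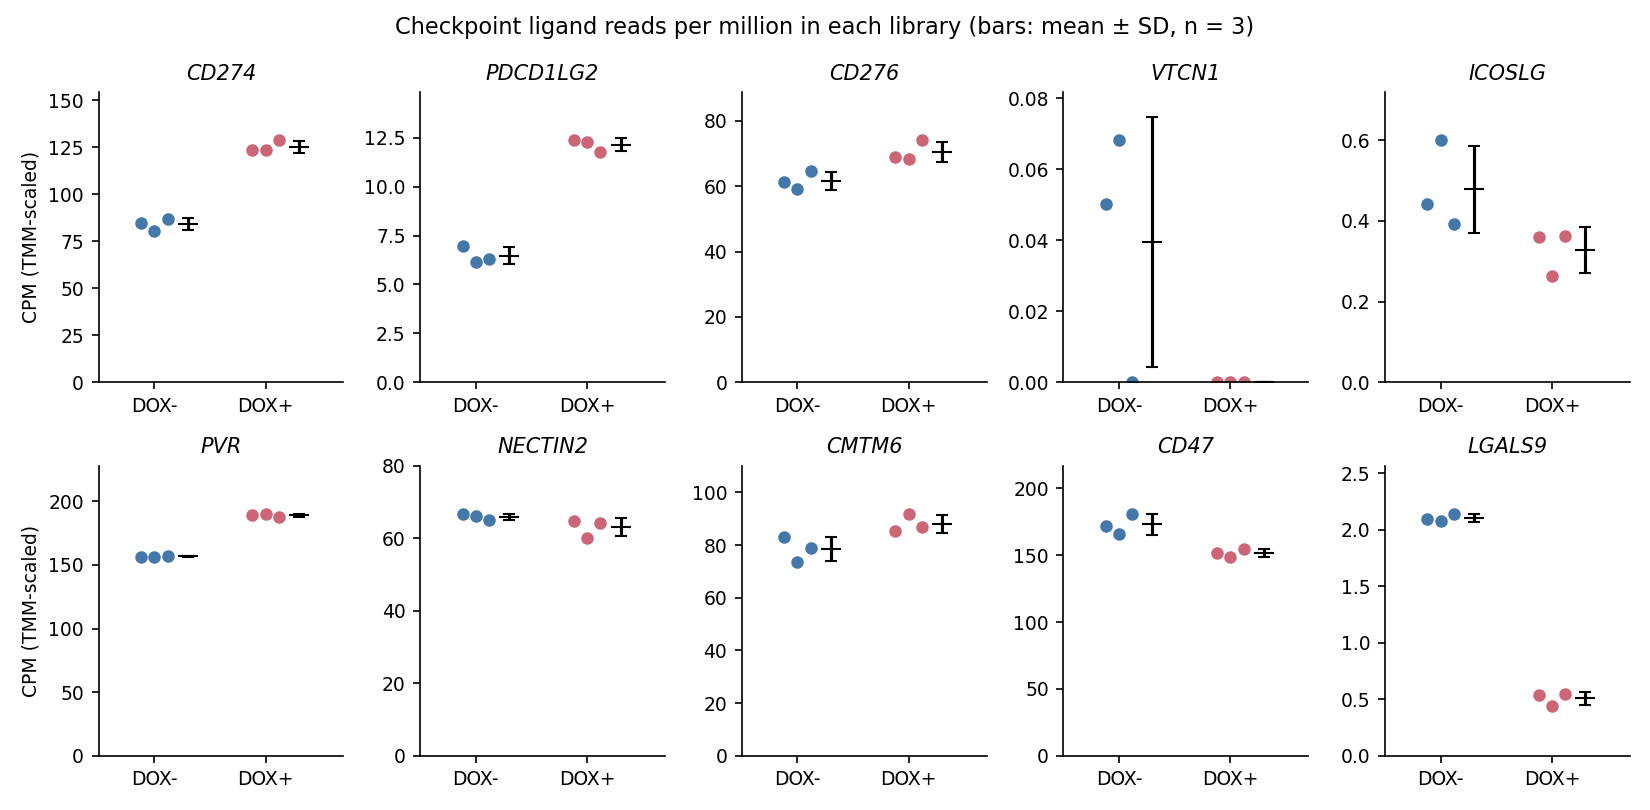
CPM (vertical axis, from 0) of each gene in the 3 DOX-negative (blue) and 3 DOX-positive (red) libraries, with mean and SD in black (n = 3 each). CD274 and PDCD1LG2 are higher in every DOX-positive library, LGALS9 is lower in every one, and VTCN1 is at 0 in 4 of the 6 libraries.

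Levels per gene length spanned a wide range, and their order depends on the deposited lengths. In CPM without DOX, CD47 had the highest mean, 173.0 against 156.8 for PVR. In DOX-negative cells PVR was highest at 25.7 ± 0.0899 RPKM (SD, n = 3 here and below). CD47 at 21.0 ± 0.914, CD274 at 20.5 ± 0.785 and CMTM6 at 20.4 ± 1.21 RPKM followed, each overlapping the next. NECTIN2 at 17.6 ± 0.228, CD276 at 11.3 ± 0.505 and PDCD1LG2 at 2.66 ± 0.177 RPKM came after them without overlap. The lowest were LGALS9 at 0.368 ± 0.00578, ICOSLG at 0.0512 ± 0.0115 and VTCN1 at 0.0130 RPKM on average. In DOX-positive cells CD274, at 30.5 ± 0.744 RPKM, overlapped PVR at 31.0 ± 0.233. CMTM6 at 22.8 ± 0.873 then stood above CD47 at 18.4 ± 0.346 RPKM without overlap. NECTIN2 at 16.9, CD276 at 12.8 and PDCD1LG2 at 4.99 RPKM followed, then LGALS9 at 0.0892 and ICOSLG at 0.0352 RPKM. The levels of LGALS9 and ICOSLG, and their order, depend on an uncertain split of reads with near-identical copies, described with each gene. An alternative chosen after seeing the data added the copies' reads and divided by the member's own length. LGALS9 then stood at 0.375 ± 0.00706 and ICOSLG at 0.314 ± 0.0389 RPKM without DOX. With DOX they stood at 0.193 ± 0.0301 and 0.242 ± 0.0364 RPKM, the reverse order of means, and overlapped. The ICOSLG copy FP565260.3 is shorter, 3357 bases against 9341. Over its own length it stood at 0.731 ± 0.0784 RPKM without DOX and 0.576 ± 0.0866 with it, above these sums. The order of the sums therefore depends on the length used.

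**Figure D2:**
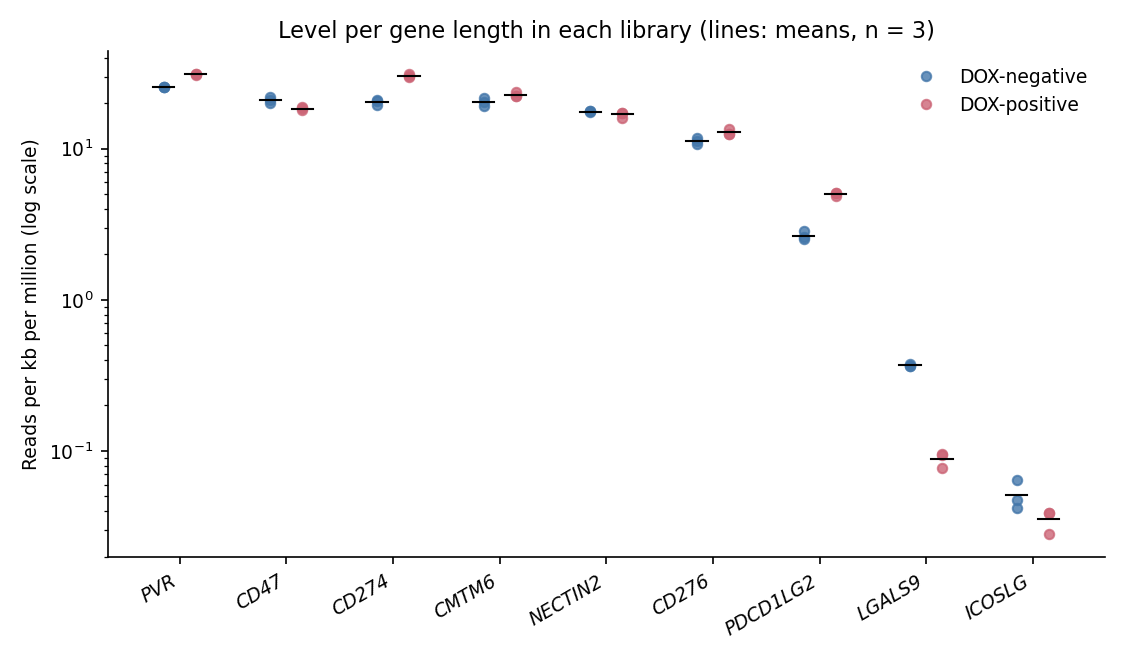
Reads per kilobase per unit library size (RPKM, vertical log axis) of 9 genes in each DOX-negative (blue) and DOX-positive (red) library, with lines at the means (n = 3). CD274 lies beside CD47 and CMTM6 without DOX and beside PVR with it, and LGALS9 falls furthest. LGALS9 and ICOSLG are drawn without the reads of their copies, and VTCN1 is not drawn.

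CD274 (ENSG00000120217.14) encodes PD-L1. It read 84.8, 80.6 and 86.9 CPM in DOX-negative replicates 1, 2 and 3, and 123.5, 123.4 and 128.7 CPM in the DOX-positive replicates in the same order. Every DOX-positive culture was well above every DOX-negative one. The mean rose 1.49-fold, from 84.1 ± 3.23 to 125.2 ± 3.06 CPM, with log2 fold change 0.57 (SE 0.04, adjusted p = 6.54e-10 by edgeR). Over 14 alternative settings it lay between 0.43 and 0.62, past the threshold in each.

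PDCD1LG2 (ENSG00000197646.8) encodes PD-L2. Without DOX it stood at 6.96, 6.14 and 6.33 CPM, and with DOX at 12.4, 12.3 and 11.8 CPM. The groups were far apart, and the level remained below that of CD274 in each library. It rose 1.88-fold, with log2 fold change 0.91 (SE 0.07, adjusted p = 4.67e-09 by edgeR). Per base of gene length, CD274 exceeded PDCD1LG2 by factors of 7.21, 7.77 and 8.13 without DOX and 5.91, 5.93 and 6.48 with it. This ratio needs no scaling of libraries and was 1.26-fold lower in DOX-positive cells, with no overlap. The exact permutation test, two-sided, gave p = 0.10, the smallest that 3 against 3 libraries allow (adjusted p = 0.10 over 3 ratios).

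Promoters of CD274 and LGALS9 are printed because they were the promoters of these genes that held an interferon-type motif, and these genes moved in opposite directions. Each runs from 250 bases before to 10 bases after the RefSeq start (GRCh38.p14): chr9:5450292-5450551 and chr17:27630938-27631197, both on the plus strand. Capitals mark matches, on either strand, to the core of the interferon-stimulated response element (ISRE: GAAA, any 2 bases, GAAA) or to the gamma-activated site (GAS: TTCNNNGAA).
CD274: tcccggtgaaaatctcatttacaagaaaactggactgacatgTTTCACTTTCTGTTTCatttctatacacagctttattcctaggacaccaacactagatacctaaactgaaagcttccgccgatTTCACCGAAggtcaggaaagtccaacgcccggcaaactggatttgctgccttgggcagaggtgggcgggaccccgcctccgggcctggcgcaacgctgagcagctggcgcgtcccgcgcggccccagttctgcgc
LGALS9: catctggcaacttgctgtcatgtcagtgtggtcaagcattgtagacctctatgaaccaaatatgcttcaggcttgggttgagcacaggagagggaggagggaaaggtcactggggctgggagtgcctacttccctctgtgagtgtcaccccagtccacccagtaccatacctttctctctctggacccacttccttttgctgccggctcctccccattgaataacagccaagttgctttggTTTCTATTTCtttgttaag
CD274 held 2 overlapping ISRE matches, which begin 208 and 202 bases before the start, and 1 GAS match 125 bases before it. LGALS9 held 1 ISRE match, which begins 9 bases before its start and runs onto it. The LGALS9 window lies inside the span of the gene in GENCODE 29, which begins at 27629798. Sequence before that position was not searched. Of 35116 RefSeq promoters, in windows of 300 bases, 3.57% held the ISRE core and 7.66% the GAS letters. The NF-kappaB letters searched (GGG, any 2 bases, TTTCC) were held by 1.91% of promoters and by no window of the 9 genes with an entry. PDCD1LG2 was the 1 gene of 10 without one. A match describes letters and not a site in use.

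Genes that act on CD274 transcription went both ways: of 14 tested, 6 rose, 7 fell and 1 did not pass, and the median log2 fold change was -0.10. IFNGR1, the ligand-binding chain of the interferon-gamma receptor, fell 2.31-fold, from 39.3 ± 1.64 to 17.0 ± 0.233 CPM. IRF2BP2, a partner of the repressor IRF2, fell 1.65-fold. HIF1A, the oxygen-regulated transcription factor, rose by 0.76 on the log2 scale, and the receptor-bound kinase JAK1 rose 1.56-fold.

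IRF1, a transcription factor that acts on the CD274 promoter, fell from 319.6 ± 20.7 to 233.8 ± 2.46 CPM, with log2 fold change -0.45 (SE 0.04, adjusted p = 6.25e-08 by edgeR). Per base of gene length, CD274 stood at 0.470, 0.507 and 0.521 of IRF1 without DOX and at 0.992, 0.996 and 1.05 of it with DOX. The ratio was 2.03-fold higher in DOX-positive cells, with no overlap (exact permutation test, two-sided, p = 0.10, again the smallest possible, adjusted p = 0.10).

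CD274 (chromosome 9, 5450503 to 5470566) and PDCD1LG2 (5510570 to 5571254) lie side by side on the plus strand in GENCODE 29 (GRCh38), with starts 60.1 kb apart. Of 10 genes around them 3 rose, 3 fell and 4 did not pass. PLGRKT, a plasminogen receptor gene and the left neighbour, rose 1.39-fold, to 16.6 ± 0.988 CPM. RIC1, a Golgi trafficking factor and the right neighbour, rose 1.21-fold. RLN2, a relaxin gene further to the left, rose 2.09-fold from 0.787 ± 0.124 CPM. JAK2, the other kinase of the interferon-gamma receptor, fell 1.57-fold, from 58.2 ± 3.71 to 37.1 ± 1.54 CPM. ERMP1, a membrane peptidase gene, fell 1.91-fold, and INSL6, an insulin-like peptide gene whose annotation overlaps JAK2, fell 2.41-fold from 0.381 ± 0.0914 CPM. RLN1, INSL4, MLANA and KIAA2026 had log2 fold changes of 0.55, 0.33, -0.14 and -0.08, none of which passed.

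**Figure D3:**
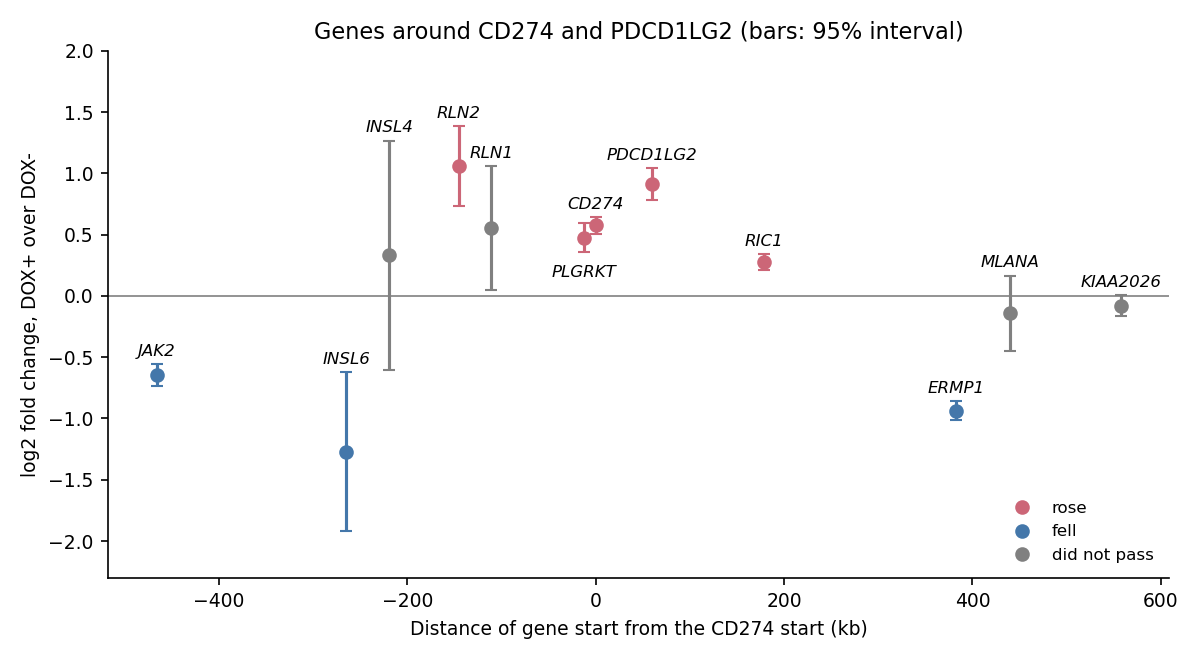
Log2 fold change (vertical axis, bars give the 95% interval) of CD274, PDCD1LG2 and 10 surrounding genes against the distance in kilobases of each gene's start from that of CD274. Red genes rose, blue genes fell and grey genes did not pass. Among the red and blue genes, RLN2, PLGRKT, CD274, PDCD1LG2 and RIC1 lie above 0, and JAK2, INSL6 and ERMP1 lie below it.

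CMTM6 (ENSG00000091317.8, chromosome 3, 32481312 to 32503408) encodes a membrane protein that binds PD-L1 and protects it from lysosomal degradation. Its levels were 82.9, 73.6 and 79.0 CPM without DOX and 85.5, 91.9 and 86.7 CPM with DOX. The groups did not overlap, but the highest DOX-negative culture came close to the lowest DOX-positive one. The rise was 1.12-fold, with log2 fold change 0.17 (SE 0.04, adjusted p = 0.00291 by edgeR), and with library size alone it was 0.023 (adjusted p = 0.655). CMTM7 overlaps the gene by 1756 bases on the opposite strand, had 24.7% as many reads and rose 1.39-fold. Its part in the CMTM6 result was not tested.

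Of 16 other genes that act on PD-L1 protein, 10 rose, 1 fell and 5 did not pass, with 0.20 as their median log2 fold change. With libraries scaled by size alone these counts became 7 and 5, around a median of 0.053. B3GNT3, a glycosyltransferase that modifies PD-L1, went from 4.35 ± 0.173 to 17.5 ± 0.450 CPM, a 4.03-fold rise (log2 fold change 2.01, SE 0.06, adjusted p = 8.64e-14 by edgeR). ZDHHC3, a palmitoyltransferase, rose 1.47-fold, TRAPPC4, a trafficking subunit, rose 1.43-fold, and CDK4, a kinase of the cell cycle, rose 1.29-fold.

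CD276 (ENSG00000103855.18, chromosome 15, 73683966 to 73714518) encodes B7-H3. It stood at 61.3, 59.2 and 64.7 CPM without DOX and at 68.9, 68.4 and 74.0 CPM with it. The groups were separate and the rise was small, 1.14-fold, with log2 fold change 0.19 (SE 0.04, adjusted p = 0.000514 by edgeR). With library size alone it was 0.048 (adjusted p = 0.257).

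VTCN1 (ENSG00000134258.17, chromosome 1, 117143587 to 117210960) encodes B7-H4, an inhibitory ligand of T cells. It had 5, 10 and 0 reads without DOX and 0 reads in each DOX-positive library. Since DOX-negative replicate 3 was at 0 as well, the groups overlapped. Against a floor of 3 reads over the group, the DOX-positive level came out 5.71-fold lower. This figure covers counting error in the group at 0 reads, but not in the 15 DOX-negative reads or among cultures. It dropped to 3.35-fold without DOX-negative replicate 2, which held 10 of the 15 reads, and to 3.36-fold without DOX-positive replicate 2, the deepest library.

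ICOSLG (ENSG00000160223.17, chromosome 21, 44217014 to 44240966) encodes the ligand of the T-cell costimulator ICOS. Its reads, 36 to 88 per library, gave 0.443, 0.600 and 0.393 CPM without DOX and 0.360, 0.263 and 0.363 CPM with it. The groups came close without overlapping. The log2 fold change of -0.57 did not pass (SE 0.27, unadjusted p = 0.0503, adjusted p = 0.0829 by edgeR). Its 95% interval, -1.10 to -0.04, is a normal one and narrower than that test implies. A near-copy, FP565260.3, is annotated on the same chromosome (5022493 to 5040666), and 93.2% of the 50-base windows of its transcripts also occur in those of ICOSLG. In the other direction, 33.7% of the ICOSLG windows occur in FP565260.3. ICOSLG took 13.8% to 17.9% of the reads of the pair. FP565260.3 fell from 2.46 ± 0.263 to 1.93 ± 0.291 CPM, with log2 fold change -0.35 (SE 0.14, adjusted p = 0.0428 by edgeR). The sum of both, an alternative chosen after seeing the data, had one of -0.39 and passed (adjusted p = 0.0252).

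Other B7-related and butyrophilin genes were mostly lower: of 10 tested 1 rose, 7 fell and 2 did not pass, and the median log2 fold change was -0.43. BTN3A1, a butyrophilin that takes part in phosphoantigen recognition by gamma-delta T cells, fell 1.65-fold, and its relative BTN3A2 fell 1.38-fold. VSIR, which encodes the inhibitory ligand VISTA, fell 1.57-fold, from 39.0 ± 2.28 to 24.9 ± 1.46 CPM. NCR3LG1, which encodes B7-H6, a ligand of natural killer cells, was the 1 that rose, by 1.40-fold. Butyrophilin genes resemble one another, so the split of reads among them is uncertain. CD86 had 0 reads in all libraries, and CD80 and HHLA2 at most 9 in any one.

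PVR (ENSG00000073008.15, chromosome 19, 44643798 to 44663583) encodes the poliovirus receptor CD155. It stood at 156.6, 156.4 and 157.4 CPM without DOX and at 189.4, 190.2 and 187.4 CPM with it. The replicates of each group were nearly equal, and the groups were far apart. The rise was 1.21-fold, with log2 fold change 0.27 (SE 0.03, adjusted p = 1.05e-06 by edgeR). With library size alone it was 0.13 and still passed. CEACAM19 overlaps PVR by 1306 bases on the same strand, had 1.35% as many reads and fell 2.02-fold.

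NECTIN2 (ENSG00000130202.10, chromosome 19, 44846175 to 44889228) encodes CD112. Its levels were 66.8, 66.1 and 65.1 CPM without DOX and 64.9, 60.2 and 64.2 CPM with it. The groups only just failed to overlap. The log2 fold change of -0.06 had a 95% interval of -0.13 to 0.0014 (SE 0.03, adjusted p = 0.116 by edgeR). It passed as lower with upper-quartile scaling (-0.12, adjusted p = 0.00409), with library size alone (-0.21, adjusted p = 5.11e-05) and under a filter of 1 CPM in 3 libraries (-0.10, adjusted p = 0.00951).

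Within a library, PVR per base of gene length stood at 1.44, 1.45 and 1.48 times NECTIN2 without DOX and at 1.79, 1.94 and 1.79 times with it. All DOX-positive ratios were above all DOX-negative ratios, by 1.26-fold on average (exact permutation test, two-sided, p = 0.10, the smallest possible, adjusted p = 0.10). Of 5 other nectin-related genes, 1 rose, 3 fell and 1 did not pass, and the median log2 fold change was -0.33. CADM1, an adhesion molecule recognised by the lymphocyte receptor CRTAM, fell 1.91-fold, from 94.0 ± 4.09 to 49.2 ± 0.438 CPM. NECTIN1, a herpesvirus entry receptor, fell 1.25-fold, and the adhesion gene CADM4 fell 1.43-fold. AFDN, which encodes afadin, the actin-linked partner of nectins, rose 1.41-fold.

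**Figure D4:**
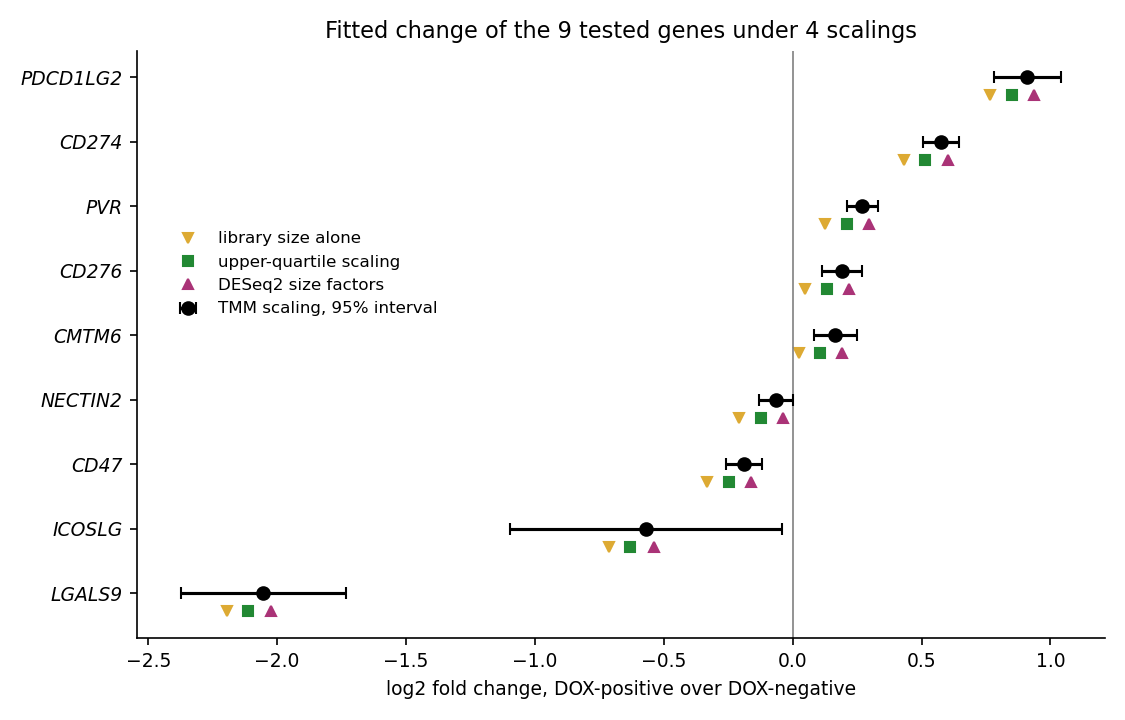
Log2 fold change (horizontal axis, DOX-positive over DOX-negative) of the 9 tested genes with TMM scaling and its 95% interval in black, and under 3 other scalings as coloured marks below it. CD274, PDCD1LG2 and PVR lie above 0 under all 4 scalings, LGALS9 and CD47 lie below it, and CMTM6 comes to 0.023 with library size alone.

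CD47 (ENSG00000196776.16, chromosome 3, 108043094 to 108091862) restrains phagocytosis through SIRPA. It stood at 172.1, 166.0 and 180.9 CPM without DOX and at 152.0, 148.8 and 154.5 CPM with it. The groups were separate and the decrease was small, 1.14-fold, with log2 fold change -0.19 (SE 0.04, adjusted p = 0.00030 by edgeR). It ranged from -0.33 to -0.14 over 14 alternative settings and passed in each. Of 8 other genes of this axis 2 rose, 3 fell and 3 did not pass, and the median was 0.06 (-0.08 with library size alone). CALR, whose product calreticulin promotes phagocytosis, rose 1.21-fold, while LRP1, the gene of its receptor, fell 1.74-fold from 280.8 ± 9.71 CPM. CD24, which encodes another surface protein that restrains phagocytosis, rose 1.37-fold. THBS1, which encodes a secreted CD47 ligand, fell 1.11-fold.

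LGALS9 (ENSG00000168961.17, chromosome 17, 27629798 to 27649560) showed the largest change of the 9 tested genes. It had 208, 305 and 196 reads without DOX and 57, 64 and 54 with it, or 2.09, 2.08 and 2.14 CPM against 0.541, 0.443 and 0.545 CPM. Each DOX-positive value was far below each DOX-negative one. The decrease was 4.15-fold, with log2 fold change -2.05 (SE 0.16, adjusted p = 1.37e-08 by edgeR).

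LGALS9B (20449395 to 20467539) and LGALS9C (18476737 to 18494945), on the same chromosome, are copies whose reads can be confused with those of LGALS9. In GENCODE 29 the coding sequence of LGALS9 is 96.3% identical to that of LGALS9B and 95.9% to that of LGALS9C, and the copies are 99.5% identical to each other. Coding bases 26 to 85 are printed because, among stretches of that length, they hold the most differences between LGALS9 and LGALS9B, 6 in all, in capitals.
LGALS9: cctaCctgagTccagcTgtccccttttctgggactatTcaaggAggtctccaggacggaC
LGALS9B: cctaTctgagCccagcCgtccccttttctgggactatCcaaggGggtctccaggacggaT
LGALS9C: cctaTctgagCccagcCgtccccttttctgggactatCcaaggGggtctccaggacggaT
Of the 50-base windows of LGALS9B transcripts, 7.85% also occur in LGALS9 and 67.3% in LGALS9C.

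The copies moved against LGALS9. LGALS9B had 4, 4 and 4 reads without DOX and 50, 59 and 67 with it, with log2 fold change 3.81 (SE 0.41, adjusted p = 5.35e-07 by edgeR). LGALS9C had 0 reads in every DOX-negative library and 12, 10 and 4 in the DOX-positive ones. Against a floor of 3 reads over the group it came out 7.59-fold higher (4.31-fold without DOX-negative replicate 2). Counting error of the DOX-positive reads is not covered by this figure. LGALS9 supplied 98.0% to 98.7% of the reads of the 3 genes without DOX and 43.2% to 48.1% with it. Their sum, an alternative chosen after seeing the data, stood at 2.13, 2.11 and 2.19 CPM without DOX and 1.13, 0.921 and 1.26 CPM with it. It fell 1.95-fold, against 4.15-fold for LGALS9 alone, with log2 fold change -0.96 (SE 0.15, adjusted p = 4.01e-05 by edgeR). The split of reads among the 3 genes is uncertain. AC015688.4, annotated as protein-coding on the same strand, overlaps LGALS9 by 10980 bases and had 0 reads. Its part in the LGALS9 level was not tested.

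**Figure D5:**
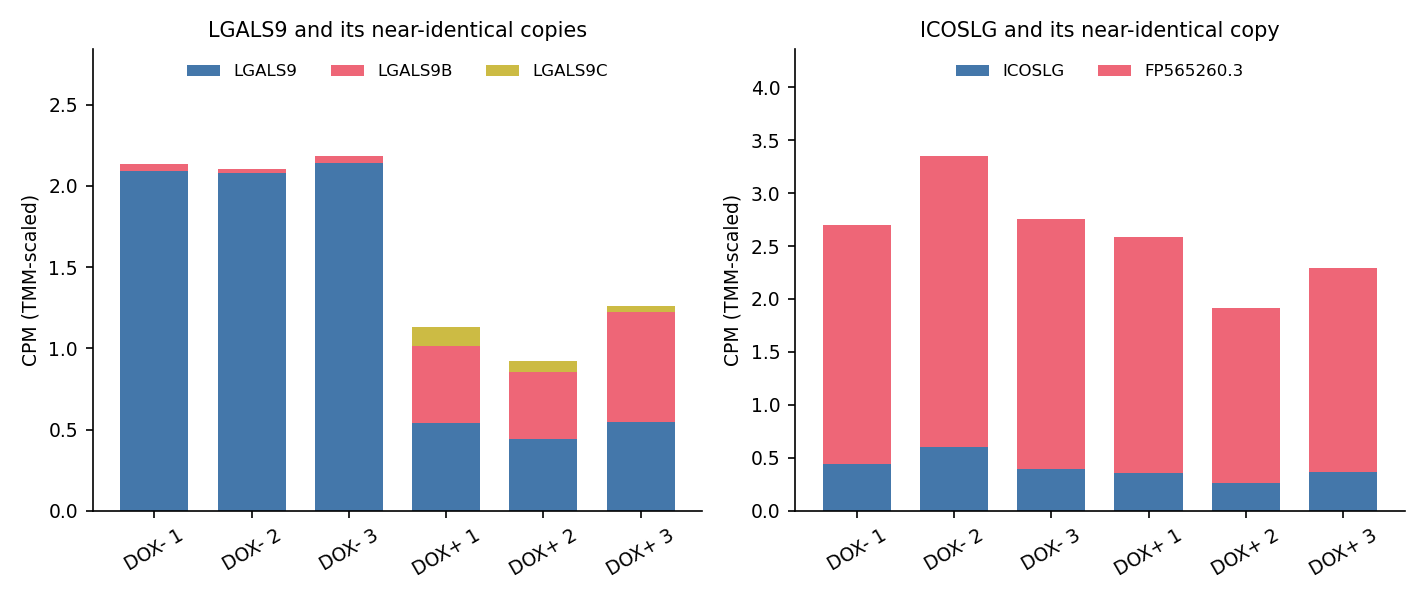
Stacked CPM (vertical axis from 0) in each of the 6 libraries for LGALS9 with LGALS9B and LGALS9C (left) and for ICOSLG with FP565260.3 (right). LGALS9 makes up 98.0% to 98.7% of the bar without DOX and 43.2% to 48.1% with it, while ICOSLG is the smaller part in every library.

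Of 9 other galectin genes and partners tested, LGALS9B among them, 6 rose, 2 fell and 1 did not pass, and the median log2 fold change was 0.18. With library size alone 4 rose and 2 fell, and the median was 0.035. LGALS1 and LGALS3, which encode widely expressed galectins, rose 1.36-fold and 1.38-fold. LGALS3BP, which encodes a secreted galectin-binding glycoprotein, fell 2.24-fold, from 218.7 ± 7.87 to 97.7 ± 4.24 CPM. CEACAM1, an adhesion molecule also described as a TIM-3 ligand, rose 1.46-fold.

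Among 8 tested genes of other ligands of lymphocyte receptors, 3 fell and 5 did not pass. With library size alone 5 fell. TNFRSF14, which encodes HVEM, the ligand of BTLA, fell 2.20-fold, from 13.8 ± 1.07 to 6.27 ± 0.342 CPM. HLA-E, the ligand of NKG2A, fell 1.18-fold, a value that is uncertain because HLA genes share sequence. CD70, the ligand of CD27, fell 1.33-fold. CD58, the ligand of CD2, had a log2 fold change of -0.12 (adjusted p = 0.106 by edgeR).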

How the data were processed

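The deposited table gives whole-number read counts per gene and library, not normalized, with a gene length column that was used for RPKM. Per the labels, libraries were made with a stranded mRNA kit. CASAVA 1.8.2, STAR 2.7.9a, DESeq2 1.24.0 and GRCh38.p7 are listed, with neither role nor order, per the submitters' processing notes. No source used here gives the counter, its strand setting or its handling of multiply mapping reads. Rows with no symbol (66, with 0.000516% of reads) kept their gene IDs.

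Groups and replicate numbers came from the sample titles. Counts were tested by edgeR 4.0.16 (quasi-likelihood, R 4.3.3), with TMM scaling, group as the only term, filterByExpr (minimum count 10, minimum total 15) and Benjamini-Hochberg adjustment over 24695 genes. A standard error is the log2 fold change over the square root of F, and 95% intervals are normal. Such intervals are narrower than the quasi-likelihood test implies. Ratios add 0.5 to each count. Alternatives were other scalings and filters, DESeq2 1.42.0, limma-voom (limma 3.58.1), a replicate block and leaving out each library. The script was tested on simulated data. A floor of 3 reads is 0.0199 to 0.0342 CPM per library, here from total counts without TMM scaling. Without molecular identifiers, the floor covers only counting error of the group at 0 reads. The fold values of VTCN1 and LGALS9C against this floor also use unscaled totals.

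Replicates differed beyond sampling noise (chi-square per degree of freedom 6.40 to 20.8 within groups). The labels speak of triplicate cultures only, so p-values reflect the spread among these cultures, which may be technical. Members and lists were chosen with earlier results of these data known. Named were all members, MUC1, the chromosome 9 neighbours, near-identical copies and up to 4 genes of smallest p per list. IRF1 is named for its ratio. CD68, overlapping genes and genes at or near 0 reads were named after their values were seen.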

Additional observations from a re-analysis of the deposited data

How the results depend on the processing

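CD274, PDCD1LG2, PVR, CD47 and LGALS9 kept their direction and their side of the threshold in each alternative run, and no member's direction reversed. With library size alone 3 members were higher and 4 lower, CD276 (0.048) and CMTM6 (0.023) no longer passed, and ICOSLG (-0.71) and NECTIN2 (-0.21) passed as lower. NECTIN2 also passed with upper-quartile scaling (-0.12) and under the filter of 1 CPM in 3 libraries (-0.10), and ICOSLG did when summed with FP565260.3 (-0.39). VTCN1 was fitted only without a filter, at -5.25 (edgeR adjusted p = 0.0214), a value that depends on the prior count and is no bound. LGALS9 lay between -2.20 and -1.94 apart from the sum with its copies (-0.96). Leaving out 1 library at a time changed no member's call. The ranges were 0.54 to 0.62 for CD274, 0.87 to 0.99 for PDCD1LG2, 0.16 to 0.24 for CD276, 0.12 to 0.23 for CMTM6 and -0.67 to -0.36 for ICOSLG. The 3 ratios kept their direction in each of 8 alternatives.

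Fitted with the replicate number as a block, 5 members were higher and 2 lower, with 6670 genes higher and 6833 lower in the table (6825 and 7132 without it). Correlations of deviations were -0.20, -0.04 and 0.01 between same-numbered libraries and -0.23 to 0.26 between the other pairs across groups. With 3 libraries per group, these values cannot decide whether the numbers pair cultures, and the labels state no pairing.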

Other observations

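Lymphocyte receptors of checkpoint ligands, not only of the members described here, had few reads. The 11 listed together reached at most 0.495 RPKM in any library. Of 5 tested, TIGIT, LAG3 and CD226 fell at an adjusted p under 0.05 in edgeR. TIGIT had 18, 17 and 31 reads without DOX and 6, 4 and 3 with it. LAG3 had 20, 74 and 18 reads against 7, 22 and 7, and lost its call without DOX-negative replicate 2. CD226 had 26, 43 and 28 reads against 19, 15 and 12, and lost its call without DOX-positive replicate 2. CTLA4, CD28 and ICOS had 0 reads in all 6 libraries.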
